A study of Mus musculus with 20 samples.

Results

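Cell cycle and division genes were followed through the cycle of the seminiferous epithelium in synchronized mouse testes. The set held 56 genes named by symbol, from cyclins and cyclin-dependent kinases (CDKs) to the machinery of the spindle, of cytokinesis and of DNA replication. A gene was represented by a probe set annotated to its symbol alone, and by the one with the highest mean where it had several. By this rule 55 of the 56 genes had a probe set, were listed in all 20 arrays and passed the filter on low values, among 15651 genes tested in all. Ccnb1, the cyclin B1 gene, had no probe set of its own and was not analysed here.

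All animals were male 129/C57BL6 mice positive for RiboTag and Cyp17icre. RiboTag puts an HA epitope on a ribosomal protein wherever Cre recombinase is active, and Cyp17 drives Cre in Leydig cells, the steroid-producing cells between the seminiferous tubules. All of them received WIN 18,446, an inhibitor of retinoic acid synthesis, at 100 µg per g body weight a day for 7 days from 2 days after birth, then 200 µg of all-trans retinoic acid at 9 days, and were killed 42 to 50 days after that injection. The block and release of retinoic acid brings the tubules of a testis to neighbouring stages, so that each testis fell into 1 of 5 stage windows. In the order of the cycle these were XII-II/III, II/III-VI and VI-VIII, followed by VIII-X and then X-XII. One homogenized testis per time point gave both a total testis sample (50 µl of homogenate) and, from the rest, an immunoprecipitate (IP) of HA-tagged polysomes, labelled as Leydig cell RNA. There were 2 arrays per window and fraction, 20 in all, and all of these animals carried both alleles and both treatments, so the windows were compared with each other and not with untreated mice. The labels of total testis XII-II/III replicate 1 disagree, with X-II/III in one field and XII-II/III in the others, and the latter was used. Values are log2 of the deposited intensities, with replicate 1 before replicate 2 wherever 2 are given.

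The arrays formed 4 sets of 5 (each fraction and replicate number), which appear to have been normalized apart, so that only differences within a set are free of that step. The median difference of all genes between IP and total testis was 0.20 on the log2 scale as deposited, -0.31 after each array was centred on its median and -0.11 after quantile normalization. The label of the IP was borne out by its markers: 6 of 6 tested Leydig cell genes were higher in IP, with a median log2 difference of 2.81, and their summed intensity was 76649 to 93766 in the IP arrays against 15232 to 21689 in total testis. Germ cell markers gave signal in the IP arrays as well. The 7 spermatocyte markers summed to 10927 to 20514 in IP and 21946 to 28470 in total testis. Only genes listed in every array were tested, so a signal above 0 was given in advance. It does not by itself show germ cell RNA in the IP.

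Progress through the cell cycle is driven by CDKs, which need a cyclin partner for activity. CDC25 phosphatases remove inhibitory phosphates from them, and the mitotic kinases of the Polo, Aurora and NIMA families act with CDK1 on centrosomes, chromosomes and the spindle. The spindle checkpoint holds back anaphase until kinetochores are attached to microtubules, after which CDC20 activates the anaphase-promoting complex, a ubiquitin ligase. In the adult testis such genes serve the mitoses of spermatogonia, DNA replication before meiosis and the meiotic divisions of spermatocytes, which in the mouse take place at stage XII, while adult Leydig cells rarely divide. A window of synchronized stages is a mixture of cell types, and in bulk RNA a change in how many cells of a type there are and a change in RNA per cell cannot be told apart.

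Many promoters of cell cycle genes carry CCAAT boxes, bound by NF-Y, and cell cycle homology regions (TTTGAA or TTCGAA), bound by the MuvB complexes, or E2F sites. RefSeq promoter windows of GRCm38.p6, each from 250 bases before to 50 after a transcription start, were found for 48 of the 56 genes (52 promoters). They show how letters known from such promoters are spread over genes whose arrays are described here. For 6 genes the 150 bases before the start are given 5′ to 3′ on the gene's strand, with every match to a searched motif, on either strand, in capitals. Cdk1, Aurka, Spc25 and Cenpe are genes that were highest in XII-II/III in total testis. Cdk2, highest in X-XII, and Mcm6, of the replication helicase, are given for their E2F-type letters.
Cdk1 (chr10:69352913-69353062, minus strand): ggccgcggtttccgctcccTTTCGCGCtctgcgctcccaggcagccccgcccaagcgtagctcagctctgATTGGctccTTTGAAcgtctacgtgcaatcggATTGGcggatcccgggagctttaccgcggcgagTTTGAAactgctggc
Aurka (chr2:172370571-172370720, minus strand): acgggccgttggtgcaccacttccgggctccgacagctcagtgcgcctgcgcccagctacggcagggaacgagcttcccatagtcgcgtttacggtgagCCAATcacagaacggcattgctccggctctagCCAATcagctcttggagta
Spc25 (chr2:69206214-69206363, minus strand): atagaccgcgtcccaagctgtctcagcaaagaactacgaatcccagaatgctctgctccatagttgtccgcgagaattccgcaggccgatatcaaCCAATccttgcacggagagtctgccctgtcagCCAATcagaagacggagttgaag
Cenpe (chr3:135212413-135212562, plus strand): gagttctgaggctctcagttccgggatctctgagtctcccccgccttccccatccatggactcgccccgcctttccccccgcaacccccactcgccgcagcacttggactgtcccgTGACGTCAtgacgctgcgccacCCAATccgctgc
Cdk2 (chr10:128705052-128705201, minus strand): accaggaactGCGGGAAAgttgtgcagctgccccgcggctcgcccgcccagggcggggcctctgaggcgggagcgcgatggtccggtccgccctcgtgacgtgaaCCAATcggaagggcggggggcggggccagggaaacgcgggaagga
Mcm6 (chr1:128359706-128359855, minus strand): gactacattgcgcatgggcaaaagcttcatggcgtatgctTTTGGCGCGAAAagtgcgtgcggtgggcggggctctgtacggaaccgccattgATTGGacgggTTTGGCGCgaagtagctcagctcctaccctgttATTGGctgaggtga
In Cdk1 the capitals mark an E2F-type match followed by alternating CCAAT boxes (read as ATTGG on the opposite strand) and TTTGAA. Aurka and Spc25 each hold a pair of CCAAT boxes, Cenpe a cyclic AMP response element (CRE) and a CCAAT box, Cdk2 an E2F-type match on the opposite strand and a CCAAT box, and Mcm6 E2F-type letters, a pair of which overlap, beside CCAAT boxes.

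Over the whole windows and both strands, CCAAT was in 39 of the 52 promoters (75.0%), against 36.9% of the 15677 promoters of all genes tested and 37.4% of all 32851 promoters. TTTGAA or TTCGAA was in 29 of 52 (55.8%, against 14.3% and 19.2%). An E2F-type match (TTTCGCGC, TTTGGCGC, TTTCCCGC or TTTGCCGC) was in 11 (21.2%, against 3.48% and 2.26%). The CRE letters TGACGTCA were in 4 (7.69%, against 2.72% and 1.79%), and AACNGTT, a MYB-type motif, was in 0 of 52 (against 3.46% and 4.45%). E2F-type letters were in 6 of the 12 promoters of replication genes (50.0%) and 5 of the 40 others (12.5%), and TTTGAA or TTCGAA in 2 of the 12 (16.7%) and 27 of the 40 (67.5%). Of 12 promoters of genes that changed over windows in total testis and peaked in XII-II/III, 10 held CCAAT and 7 held TTTGAA or TTCGAA. These are counts of letters and were not tested. The entries for Ccna2, Ccne2, Cdc25c, Aurkb, Incenp, Kif20a, Tpx2 and Mcm4 were missing.

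**Figure D1:**
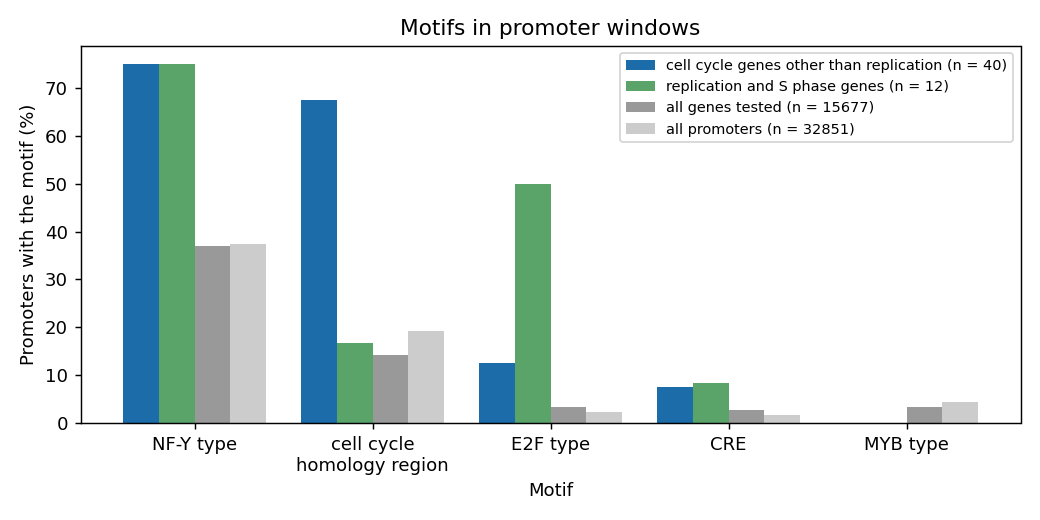
Share of promoter windows (y axis, percent) that hold each motif (x axis) among cell cycle genes other than the replication group (40 promoters), the replication and S phase group (12), all genes tested (15677) and all promoters (32851). The cell cycle homology region is in 67.5% of the former and 16.7% of the replication promoters, and the E2F-type motif in 12.5% and 50.0%.

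The first comparison asked which of these genes changed between windows in total testis. By a moderated F test over the 5 windows, 20 of the 55 genes (36.4%) passed an adjusted p of 0.05 (Benjamini-Hochberg over all genes), against 18.4% of all genes tested. Of the 20, 14 had their highest mean in XII-II/III, and this was so for 25.5% of the 55 genes against 3.43% of all genes. Among all 2885 genes called, 18.6% peaked in that window. Stage XII, where the meiotic divisions take place, bounds both XII-II/III and X-XII. Some of the 14 had nearly the same mean in X-XII, as Aurkb did (11.73 against 11.81). Others stood further apart, as Cdk1 did (11.64 against 12.04). The 14 were Cdk1, Plk1, Aurka, Aurkb, Aurkc, Nek2, Birc5, Incenp, Bub1b, Cenpe, Cenpf, Ndc80, Spc25 and Rrm1. Cdc25c and Mcm3 peaked in II/III-VI, Ccna2 in VI-VIII, Kif15 in VIII-X, and Cdk2 and Kif2c in X-XII. The lowest window was VI-VIII for 11 of the 20. It was also the most frequent lowest window among all genes called, with 881 of 2885.

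The same window was also the most frequent when all 55 genes were taken, whether or not they passed. With the 14 included, the highest mean lay in XII-II/III for 31 (56.4%, against 19.1% of all genes). By set, XII-II/III was highest for 24 in the first set of arrays (22.1% of all genes) and 33 in the second (21.1% of all genes). It was highest in both sets for 21, a count not made for all genes. With the replicate number as a term in the fit, 27 genes (49.1%) passed, against 36.7% of all genes, and 15 (27.3%) passed with the peak in XII-II/III, against 7.48%. That fit lost Plk1 and Cenpe and gained Ccne1, Cdc25a, Bub3, Cenpa, Prc1, Mcm2, Mcm4, Cdc6 and Cdt1. The count of 20 fell to 13 without total XII-II/III replicate 2 or without total VI-VIII replicate 2. Calls over all genes fell as well in these 2 fits, from 2885 to 2407 of 15665 and 2186 of 15666. The count of 14 fell to 8 and 5 without total XII-II/III replicate 1 and 2, to 7 without total VI-VIII replicate 2, and to 9 without total X-XII replicate 1 or total VIII-X replicate 2. The share of all genes with that peak is not given for these fits. Summed over 7 genes, the spermatocyte markers were at 25897 to 27476 in XII-II/III, 21946 to 25978 in II/III-VI, 25180 to 25506 in VI-VIII, 25406 to 27293 in VIII-X and 26844 to 28470 in X-XII. Taken singly, 3 of these 7 markers passed the F test, against 18.4% of all genes. Pou5f2 and Dmc1 peaked in X-XII with ranges of 2.94 and 1.29, and Sycp1 in II/III-VI with 0.78. The part of the spermatocyte markers in the window differences was not tested.

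**Figure D2:**
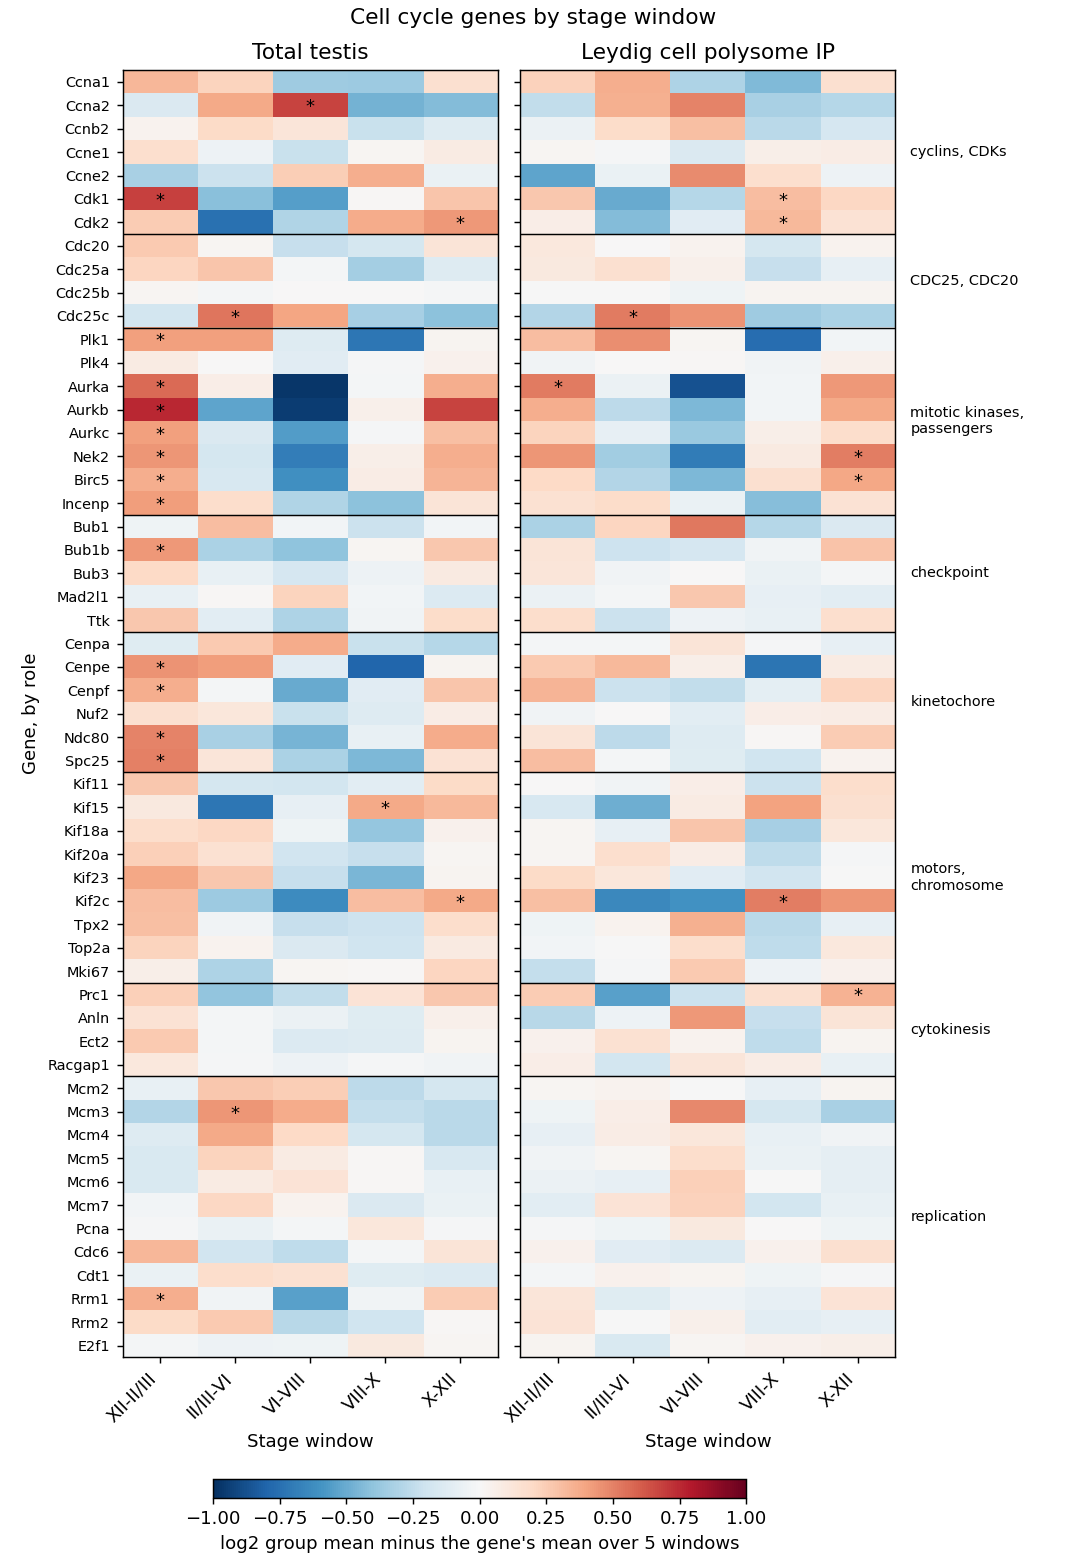
Log2 group mean of each gene minus its mean over the 5 windows (colour, -1 to 1), for 55 genes by role (rows) and the 5 stage windows (columns) in total testis (left) and IP (right), with n = 2 arrays per cell. An asterisk marks the peak window of genes that passed the F test, 20 in total testis, 14 of them in XII-II/III, and 8 in IP.

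Of the 7 cyclin and CDK genes tested, 3 changed in total testis, against 18.4% of all genes. Cdk1 encodes the kinase that starts mitosis and the meiotic divisions. It read 12.02 and 12.06 in XII-II/III, 11.05 and 10.82 in II/III-VI, 10.81 and 10.80 in VI-VIII, 11.44 and 11.31 in VIII-X and 11.51 and 11.76 in X-XII. Both arrays of XII-II/III lay above all others, and Cdk1 was higher there than in the other 4 windows by 0.85 ± 0.15 (SE on the log2 scale, with n = 2 arrays in each window; adjusted p = 0.000677 by limma). The difference was 0.82 in the first set of arrays and 0.88 in the second, and the highest and lowest windows lay 2.35-fold apart. Cdk2, which pairs with cyclins E and A and is needed for meiotic prophase, had another course. Its arrays read 11.57 and 11.56 in XII-II/III, 10.52 and 10.60 in II/III-VI, 10.91 and 11.10 in VI-VIII, 11.67 and 11.69 in VIII-X and 11.82 and 11.67 in X-XII. It was low from II/III to VIII and high from VIII to II/III, with the top window X-XII (0.54 ± 0.11 above the others, adjusted p = 2.4e-05; 0.65 and 0.43 in the 2 sets), although the arrays of VIII-X and X-XII overlapped. Ccna2, the cyclin A2 gene, read 9.72 and 9.85 in XII-II/III, 10.05 and 10.55 in II/III-VI, 10.63 and 10.58 in VI-VIII, 9.50 and 9.41 in VIII-X and 9.36 and 9.63 in X-XII. It peaked in VI-VIII by 0.85 ± 0.20 (adjusted p = 0.00765; 0.98 and 0.72 in the 2 sets), with both arrays of that window above all others.

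The other cyclins did not pass the test. Ccna1, the cyclin A1 gene of meiotic cells, ranged by 0.70 between its highest and lowest window means (adjusted p = 0.286), with its 10 total testis arrays between 12.19 and 13.37. Ccnb2 (cyclin B2) ranged by 0.42 (0.461), Ccne1 by 0.39 (0.547) and Ccne2 by 0.68 (0.388).

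Among the CDC25 phosphatases and Cdc20, 1 of 4 genes changed, against 18.4% of all genes. Cdc25c read 9.65 and 9.60 in XII-II/III, 10.34 and 10.34 in II/III-VI, 10.33 and 10.07 in VI-VIII, 9.41 and 9.53 in VIII-X and 9.36 and 9.42 in X-XII. It was highest in II/III-VI, by 0.67 ± 0.12 (adjusted p = 0.000488; 0.65 and 0.69 in the 2 sets), and stayed high in VI-VIII, whereas Cdk1 was low in both windows. Cdc25a ranged by 0.62 between II/III-VI and VIII-X (adjusted p = 0.0808) and Cdc20 by 0.49 (adjusted p = 0.347). Cdc25b carried the same value, 8.45, in all 5 arrays of the second total testis set, and its range of 0.03 therefore rests on the first set.

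Of the 8 mitotic kinases and genes of the chromosomal passenger complex, 7 changed, and all 7 had their highest mean in XII-II/III. Of all genes, 18.4% changed and 3.43% changed with that peak. The lowest window was VI-VIII for 5 of them and VIII-X for Plk1 and Incenp, and 6 of the 8 genes passed with the replicate number in the fit. Aurkb, the Aurora B kinase of the passenger complex, had the widest range of the 55 genes. It read 11.73 and 11.90 in XII-II/III, 10.62 and 10.45 in II/III-VI, 10.29 and 9.94 in VI-VIII, 11.47 and 10.75 in VIII-X and 11.63 and 11.83 in X-XII. XII-II/III and X-XII were both high and overlapped, VI-VIII was lowest, and the highest and lowest windows lay 3.25-fold apart (peak against the rest 0.94 ± 0.23, adjusted p = 0.00107; 0.72 and 1.16 in the 2 sets). Aurka, the centrosomal and spindle pole kinase Aurora A, read 12.73 and 12.90 in XII-II/III, 12.48 and 12.14 in II/III-VI, 11.41 and 11.14 in VI-VIII, 12.43 and 12.03 in VIII-X and 12.49 and 12.74 in X-XII. VI-VIII again lay below every other window, 2.92-fold under the peak (0.71 ± 0.18, adjusted p = 0.000839; 0.52 and 0.89 in the 2 sets). Nek2, a centrosome kinase, read 12.58 and 12.46 in XII-II/III, 12.15 and 11.64 in II/III-VI, 11.47 and 11.32 in VI-VIII, 12.27 and 12.02 in VIII-X and 12.45 and 12.43 in X-XII. It followed the same course (0.55 ± 0.16, adjusted p = 0.00347; 0.49 and 0.61 in the 2 sets).

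Plk1, the Polo kinase of mitotic entry and spindle assembly, differed from them in its low point. Its total testis arrays read 12.92 and 13.14 in XII-II/III, 13.14 and 12.92 in II/III-VI, 12.75 and 12.23 in VI-VIII, 12.31 and 11.48 in VIII-X and 12.47 and 12.82 in X-XII. The lowest window was VIII-X, not VI-VIII, and II/III-VI was as high as XII-II/III (peak against the rest 0.52 ± 0.23, adjusted p = 0.0383; 0.25 and 0.78 in the 2 sets, with II/III-VI the highest window in the first). The call was lost with the replicate number in the fit (adjusted p = 0.0619) and in 7 of 20 fits that each left out 1 array, the weakest without total VIII-X replicate 2 (0.324). The other passenger complex genes were Birc5 (survivin), at 0.46 ± 0.15 above the rest in XII-II/III (adjusted p = 0.00376; 0.40 and 0.52 in the 2 sets), and Incenp, its scaffold, at 0.51 ± 0.16 (0.0304; 0.31 and 0.72). Incenp lost its call in 5 of the 20 fits, the weakest without total VIII-X replicate 2 (0.122).

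Aurkc, the Aurora C kinase of meiotic cells, was 0.51 ± 0.15 higher in XII-II/III (adjusted p = 0.00858; 0.41 and 0.61 in the 2 sets), a call lost without total VI-VIII replicate 2 (0.0654). Its other 3 single-symbol probe sets had means of 11.57, 10.74 and 10.84 in XII-II/III and 10.31, 9.76 and 9.58 in VI-VIII, in the same order of those windows. Aurora genes are similar in sequence, and how far their probe sets respond to one another was not tested. Plk4, the kinase of centriole duplication, ranged by 0.19 over the windows and did not pass (adjusted p = 1).

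**Figure D3:**
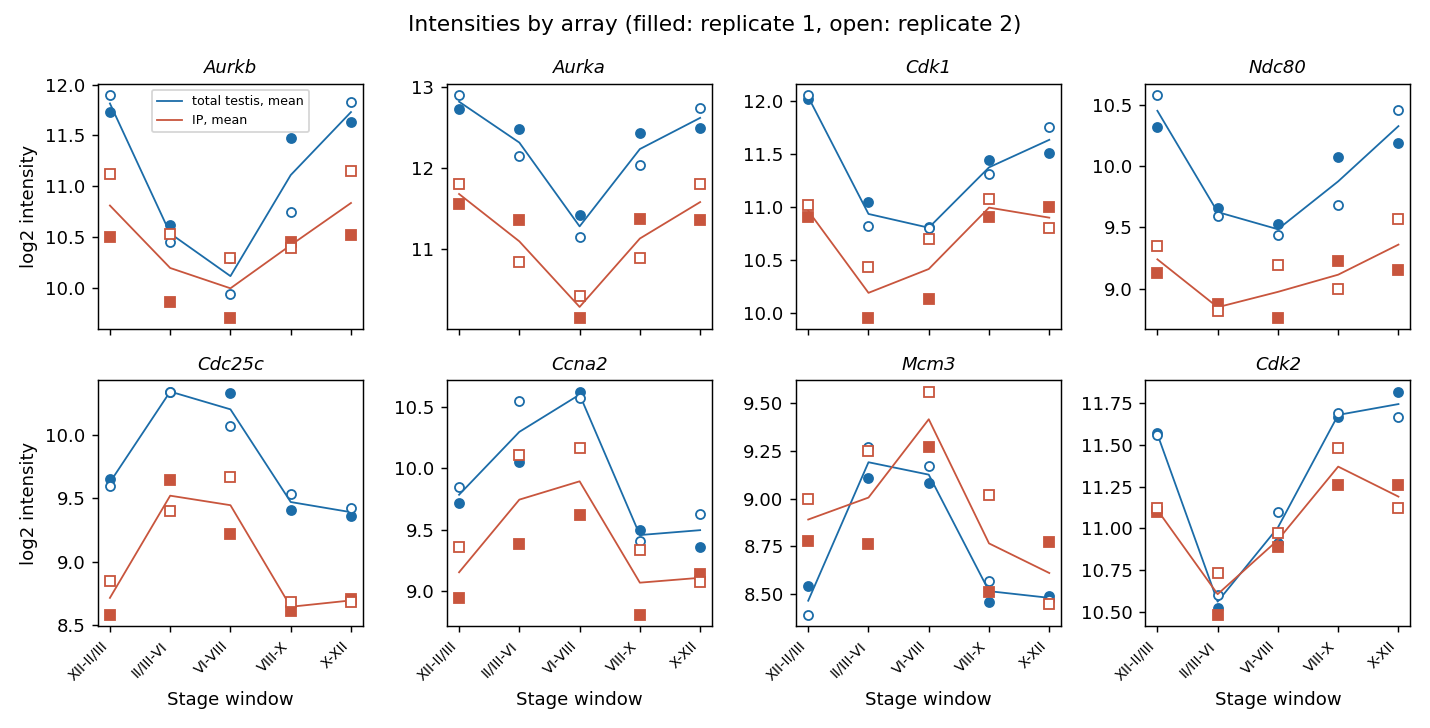
Log2 intensity (y axes) by stage window (x axes) for 8 genes, with total testis as circles, IP as squares, filled for replicate 1 and open for replicate 2, and lines through the means of 2 arrays. Aurkb, Aurka, Cdk1 and Ndc80 are highest in XII-II/III in total testis, Cdc25c and Mcm3 in II/III-VI, Ccna2 in VI-VIII and Cdk2 in X-XII.

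Of the 5 spindle checkpoint genes, 1 changed, which is near the 18.4% of all genes. Bub1b encodes BubR1, which holds back CDC20. It read 11.27 and 11.09 in XII-II/III, 10.55 and 10.31 in II/III-VI, 10.33 and 10.38 in VI-VIII, 10.86 and 10.68 in VIII-X and 10.95 and 11.10 in X-XII. XII-II/III lay highest, by 0.54 ± 0.17 (adjusted p = 0.031; 0.60 and 0.47 in the 2 sets), although its second array lay just under the second of X-XII. This call was lost in 7 of the 20 fits, the weakest without total XII-II/III replicate 1 (0.114). The kinases Bub1 and Ttk (MPS1) ranged by 0.52 and 0.58 (adjusted p = 0.929 and 0.218), and Bub3 and Mad2l1 by 0.36 and 0.37 (0.692 and 0.85). Both Ttk arrays and both Bub3 arrays of XII-II/III were at or above every other array of their set.

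Kinetochore genes changed in 4 of 6 cases, against 18.4% of all genes, and all 4 had the peak in XII-II/III. Ndc80, the microtubule-binding subunit of the outer kinetochore, read 10.32 and 10.58 in XII-II/III, 9.66 and 9.59 in II/III-VI, 9.53 and 9.44 in VI-VIII, 10.07 and 9.68 in VIII-X and 10.19 and 10.46 in X-XII. It was 0.63 ± 0.15 higher in XII-II/III (adjusted p = 0.00321; 0.46 and 0.79 in the 2 sets), with X-XII next. Its partner Spc25 read 10.29 and 10.66 in XII-II/III, 10.28 and 9.89 in II/III-VI, 9.67 and 9.62 in VI-VIII, 9.88 and 9.15 in VIII-X and 10.04 and 10.18 in X-XII. The peak stood 0.63 ± 0.18 above the rest (adjusted p = 0.0258; 0.32 and 0.95), a call lost in 4 of the 20 fits, the weakest without total XII-II/III replicate 2 (0.136).

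Cenpe, the kinesin of the kinetochore that helps chromosomes to the metaphase plate, read 11.12 and 11.51 in XII-II/III, 11.44 and 11.14 in II/III-VI, 10.89 and 10.64 in VI-VIII, 10.35 and 9.81 in VIII-X and 10.69 and 11.10 in X-XII. Like Plk1 it was lowest in VIII-X, and its peak in XII-II/III overlapped II/III-VI (0.56 ± 0.25, adjusted p = 0.0419; 0.28 and 0.84 in the 2 sets). The call was lost with the replicate number in the fit (0.0787) and in 10 of the 20 fits, the weakest without total VIII-X replicate 2 (0.349). Cenpf, a large kinetochore protein, read 11.47 and 11.52 in XII-II/III, 11.25 and 11.00 in II/III-VI, 10.78 and 10.48 in VI-VIII, 11.18 and 10.87 in VIII-X and 11.35 and 11.47 in X-XII. Its peak of 0.45 ± 0.17 (adjusted p = 0.0471; 0.33 and 0.57) was lost in 14 of the 20 fits, the weakest without total VI-VIII replicate 2 (0.305). Nuf2, the partner of Ndc80, ranged by 0.39 (adjusted p = 0.358), and Cenpa, the centromeric histone, by 0.65, with its highest mean in VI-VIII (0.15).

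Of 9 genes for spindle motors and chromosome structure, 2 changed, which is near the 18.4% of all genes, and neither peaked in XII-II/III. Kif15, a kinesin that works beside Kif11 on the bipolar spindle, read 10.71 and 10.45 in XII-II/III, 9.42 and 10.10 in II/III-VI, 10.24 and 10.57 in VI-VIII, 10.82 and 10.89 in VIII-X and 10.92 and 10.71 in X-XII. The low window was II/III-VI, and the highest was VIII-X, which overlapped X-XII, by 0.47 ± 0.19 (adjusted p = 0.0137; 0.50 and 0.43). The call rested on 1 array, total II/III-VI replicate 1, without which the adjusted p was 0.206. Kif2c, the microtubule depolymerase MCAK, read 12.64 and 12.84 in XII-II/III, 12.23 and 11.91 in II/III-VI, 11.65 and 11.94 in VI-VIII, 12.68 and 12.80 in VIII-X and 12.80 and 12.82 in X-XII. It was high from VIII to II/III and low from II/III to VIII, with the highest mean in X-XII (0.47 ± 0.18, adjusted p = 0.00586; 0.50 and 0.45), although the arrays of the 3 high windows overlapped. Kif23, Kif20a, Kif11, Tpx2, Kif18a, Top2a and Mki67 had ranges of 0.42 to 0.85 and adjusted p of 0.0802 to 0.824. The 4 cytokinesis genes, Prc1, Anln, Ect2 and Racgap1, did not pass either, with Prc1, the bundler of midzone microtubules, nearest (0.66, adjusted p = 0.0546).

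Among the 12 genes of replication and S phase, 2 changed, which is near the 18.4% of all genes, and they peaked in different windows. Mcm3, a subunit of the replicative helicase MCM2-7, read 8.54 and 8.39 in XII-II/III, 9.11 and 9.27 in II/III-VI, 9.08 and 9.17 in VI-VIII, 8.46 and 8.57 in VIII-X and 8.49 and 8.47 in X-XII. II/III-VI and VI-VIII overlapped and lay above the other windows (peak against the rest 0.54 ± 0.15, adjusted p = 0.0114; 0.46 and 0.62), a call lost without total II/III-VI replicate 2 (0.0531). Rrm1, the large subunit of ribonucleotide reductase, read 12.42 and 12.40 in XII-II/III, 12.16 and 11.85 in II/III-VI, 11.61 and 11.39 in VI-VIII, 12.11 and 11.92 in VIII-X and 12.19 and 12.42 in X-XII. It peaked in XII-II/III by 0.45 ± 0.16 (adjusted p = 0.0206; 0.40 and 0.50), was lowest in VI-VIII, and lost its call in 4 of the 20 fits, the weakest without total VI-VIII replicate 2 (0.188). Its partner Rrm2 ranged by 0.55 with the highest mean in II/III-VI (adjusted p = 0.283).

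The other MCM genes had their highest means in the windows of Mcm3 without passing the test. Mcm2, Mcm4, Mcm5 and Mcm7 were highest in II/III-VI, with ranges of 0.52, 0.65, 0.38 and 0.35 (adjusted p = 0.0672, 0.12, 0.945 and 0.474), and Mcm6 in VI-VIII with 0.29 (adjusted p = 1). With the replicate number in the fit, Mcm2 (0.00676), Mcm4 (0.00941), Cdc6 (0.00536) and Cdt1 (0.00477) passed as well. Pcna, the sliding clamp, ranged by 0.17 and E2f1 by 0.15 (adjusted p = 1 for both). The licensing factors Cdc6 and Cdt1 ranged by 0.58 and 0.31 (0.34 and 1). Pcna had a further probe set with nearly the same means (12.85 for both in XII-II/III).

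The second comparison asked for window effects in the IP. Here 8 of the 55 genes (14.5%) passed, against 8.87% of all genes: Cdk1, Cdk2, Cdc25c, Aurka, Nek2, Birc5, Kif2c and Prc1. With the replicate number in the fit, 12 passed (21.8%), near the 19.2% of all genes. The peaks lay in XII-II/III for Aurka, II/III-VI for Cdc25c, VIII-X for Cdk1, Cdk2 and Kif2c, and X-XII for Nek2, Birc5 and Prc1. When the IP arrays were fitted alone, 4 of the 8 remained called, and with array weights 2 did.

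Aurka in IP read 11.55 and 11.80 in XII-II/III, 11.35 and 10.83 in II/III-VI, 10.14 and 10.42 in VI-VIII, 11.36 and 10.89 in VIII-X and 11.35 and 11.80 in X-XII. As in total testis, VI-VIII lay below all other windows and XII-II/III was highest, by 0.66 ± 0.18 (adjusted p = 0.00285; 0.50 and 0.81 in the 2 sets). Nek2 read 11.94 and 12.09 in XII-II/III, 11.43 and 11.00 in II/III-VI, 10.65 and 11.08 in VI-VIII, 11.86 and 11.47 in VIII-X and 11.94 and 12.21 in X-XII. Its highest mean was in X-XII (0.64 ± 0.16, adjusted p = 0.00196; 0.47 and 0.80), which overlapped XII-II/III. Cdc25c read 8.58 and 8.85 in XII-II/III, 9.64 and 9.40 in II/III-VI, 9.22 and 9.67 in VI-VIII, 8.61 and 8.68 in VIII-X and 8.71 and 8.68 in X-XII. It was high in the same windows as in total testis, with II/III-VI 0.65 ± 0.12 above the others (adjusted p = 0.000802; 0.86 and 0.43).

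Kif2c in IP read 11.69 and 11.85 in XII-II/III, 11.10 and 10.57 in II/III-VI, 10.46 and 11.28 in VI-VIII, 11.98 and 11.97 in VIII-X and 11.93 and 11.90 in X-XII. Both arrays of VIII-X lay above all others, and the peak stood 0.63 ± 0.18 above the rest (adjusted p = 0.00166; 0.69 and 0.58). Cdk1 read 10.91 and 11.02 in XII-II/III, 9.95 and 10.43 in II/III-VI, 10.13 and 10.70 in VI-VIII, 10.91 and 11.08 in VIII-X and 11.00 and 10.80 in X-XII. The windows from VIII to II/III overlapped, II/III-VI was lowest, and VIII-X had the highest mean (0.38 ± 0.15, adjusted p = 0.0188; 0.41 and 0.35). Without IP II/III-VI replicate 1 the calls for Cdk1 (adjusted p = 0.098) and Cdk2 (0.0626) were lost. Cdk2 peaked in VIII-X by 0.41 ± 0.11 (0.00707; 0.33 and 0.49).

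Birc5 peaked in X-XII by 0.48 ± 0.15 (adjusted p = 0.0195; 0.36 and 0.61), a call lost in 2 of the 20 fits, the weakest without IP VI-VIII replicate 1 (0.0811). Prc1 peaked there by 0.43 ± 0.15 (adjusted p = 0.021; 0.50 and 0.36), a call lost in 3 fits, the weakest without IP II/III-VI replicate 2 (0.0982). Aurkb, widest in total testis, read 10.50 and 11.12 in XII-II/III, 9.86 and 10.53 in II/III-VI, 9.70 and 10.29 in VI-VIII, 10.45 and 10.39 in VIII-X and 10.52 and 11.15 in X-XII. In IP its replicates differed by more than many of its windows (adjusted p = 0.249). The second array was the higher in every window but VIII-X, and both sets had X-XII highest and VI-VIII lowest. With the replicate number in the fit, the adjusted p of the F test was 0.0511.

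Over the 55 genes the highest IP mean lay in VI-VIII for 18 (32.7%, against 21.0% of all genes), and none of these 18 passed the test. By set this was so for 10 of the 55 in the first set of IP arrays (16.3% of all genes) and 20 in the second (26.0% of all genes). With the replicate number in the fit, 4 of the 18 passed, Ccna2 (adjusted p = 0.0122), Ccnb2 (0.0199), Mcm3 (0.03) and Mcm7 (0.0292). Bub1 read 10.44 and 10.45 in XII-II/III, 10.98 and 10.96 in II/III-VI, 10.69 and 11.86 in VI-VIII, 10.55 and 10.39 in VIII-X and 10.32 and 10.90 in X-XII. The second array of VI-VIII stood apart from all others. The spermatocyte markers summed to 12302 and 20514 in the 2 IP arrays of VI-VIII, against 10927 to 15830 in the other IP arrays, and the spermatid markers to 31128 and 54295. The part of these differences in the IP values was not tested.

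Whether the course over windows differed between IP and total testis was tested as an interaction. None of the 55 genes passed, with 0.0511% of all genes called. An unadjusted p under 0.05 in the limma fit was reached by 2 of the 55, Cdk2 at 0.0285 and Anln at 0.0456. Over all genes it was reached by 693 of 15651, so the share of the 55 was not above that of all genes. The limma fit with the replicate number within each fraction gave 8 of the 55 at that unadjusted level. The fit with IP and total testis of 1 testis as a pair gave 3. For both fits all genes were not counted at that level, and neither called any of the 55 after adjustment. A gene that passed in total testis and not in IP, such as Aurkb or Ndc80, is therefore not shown to differ between the fractions.

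The third comparison set the level in IP against that in total testis, over all windows. Of the 55 genes, 42 (76.4%) were lower in IP, against 26.6% of all genes, and 5 (9.09%) were higher, against 50.1%. The median difference of the 55 genes was -0.53 on the log2 scale, where that of all genes was 0.20. After centring it was -1.05 (all genes -0.31), with 53 lower and 2 higher. Of all 15651 genes, 9614 were then lower and 4379 higher. After quantile normalization it was -0.95 (all genes -0.11), with 51 lower and 2 higher. Of all genes, 7678 were then lower and 5547 higher. Both fractions lay in sets normalized apart, so the SEs below are likely too small. With the sets as a random block, 27 genes were lower (18.8% of all genes) and 2 higher (40.3% of all genes). All 10 IP arrays lay below all 10 total testis arrays for 9 genes (16.4%, against 10.1%) and above them for 2 (3.64%, against 32.8%).

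The 2 lowest genes were kinases of the spindle checkpoint. Bub1 had 10 IP arrays from 10.32 through a median of 10.62 to 11.86 and total testis arrays from 11.82 through 12.16 to 12.65. It was lower by -1.44 ± 0.12 (SE, n = 10 arrays per fraction, adjusted p = 8.47e-09), 2.71-fold, with -1.62 between the arrays numbered 1 and -1.26 between those numbered 2, and 1 high IP array overlapped total testis. Ttk had IP arrays from 9.62 through 9.96 to 10.34 and total testis arrays from 10.86 through 11.36 to 11.59. No IP array reached total testis, and the difference was -1.28 ± 0.09 (5.69e-10; -1.43 and -1.12 by number).

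Ccnb2 had IP arrays from 11.80 through 12.07 to 12.67 and total testis arrays from 13.01 through 13.32 to 13.53. The fractions did not overlap, with a difference of -1.20 ± 0.08 (adjusted p = 3.56e-10; -1.34 and -1.07 by number). Aurka had IP arrays from 10.14 through 11.35 to 11.80 and total testis arrays from 11.14 through 12.46 to 12.90. Over all windows its fractions overlapped, and the difference was -1.10 ± 0.10 (adjusted p = 3.1e-08; -1.16 and -1.04 by number). Kif20a and Ccna1 were equally far down (-1.10 both). Besides Ttk and Ccnb2, the genes with no overlap and a lower IP were Kif20a, Cdc20, Nuf2, Top2a, Ect2, Racgap1 and Mcm7.

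By role, all 7 cyclin and CDK genes tested, all 9 motor and chromosome genes and all 4 cytokinesis genes were lower in IP, with medians of -0.67, -0.78 and -0.76. Of all genes, 26.6% were lower and 50.1% higher. Of the 8 mitotic kinases and passengers 7 were lower (median -0.49), and of the 6 kinetochore genes 5 (median -0.75). Incenp (-0.02) and Cenpa (-0.04) did not pass. With the sets as a random block these counts fell to 4 cyclin and CDK genes, 6 motor and chromosome genes, 2 mitotic kinases and passengers and 3 kinetochore genes, and stayed at 4 for cytokinesis. In that fit 18.8% of all genes were lower. The replication genes stood at a median of 0.04, with 3 of 12 lower, near the share of all genes, 3 higher and 6 that did not pass. Among the latter, Cdt1 carried a single value, 8.86, in all 5 arrays of the first IP set.

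Higher in IP were Mcm2, Mcm4, Rrm2, Bub3 and Cdc25b. Mcm2, a helicase subunit, had IP arrays from 10.62 through 10.82 to 11.04 and total testis arrays from 9.16 through 9.44 to 9.83. Every IP array lay above every total testis array, by 1.36 ± 0.07 in the mean (adjusted p = 2.4e-11; 1.33 and 1.39 by number), and Mcm2 was still higher by 0.84 after centring and by 0.89 after quantile normalization. Mcm4 had IP arrays from 9.38 through 9.58 to 10.05 and total testis arrays from 8.43 through 8.63 to 9.19. The difference was 0.90 ± 0.09 (adjusted p = 1.05e-07; 0.69 and 1.11 by number), and 0.39 after centring.

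The remaining helicase subunits did not share this. Mcm7 had IP arrays from 11.12 through 11.31 to 11.77 and total testis arrays from 12.16 through 12.31 to 12.60. It was lower in IP with no overlap (-1.09 and -0.91 by number; adjusted p = 1.43e-10), while Mcm5 (-0.13), Mcm6 (0.10) and Mcm3 (0.18) did not pass as deposited and were at -0.65, -0.41 and -0.33 after centring. With IP and total testis of 1 testis as a pair, Mcm3 passed as higher (adjusted p = 0.0417). Rrm2 had IP arrays from 9.99 through 10.42 to 10.69 and total testis arrays from 9.61 through 10.07 to 10.46. Its difference of 0.32 ± 0.10 (adjusted p = 0.00672) turned to -0.20 after centring and -0.17 after quantile normalization.

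Bub3, with IP arrays from 11.07 through 11.36 to 11.60 and total testis arrays from 10.83 through 11.03 to 11.30, was higher by 0.28 ± 0.08 (adjusted p = 0.0039) as deposited and lower after centring (-0.23). Cdc25b, higher by 0.26 ± 0.11 (0.0415) as deposited and lower after centring (-0.26), lost its call in 15 of the 20 fits, the weakest without IP XII-II/III replicate 2 (0.102). With the sets as a random block, Mcm2 and Mcm4 were the 2 still called higher, and the adjusted p was 0.226 for Rrm2, 0.0934 for Bub3 and 0.104 for Cdc25b. All 7 spermatocyte markers (median -0.81) and 5 of 7 spermatid markers (median -0.83) were lower in IP as well, and of the 7 spermatogonial markers 3 were lower and 2 higher. The part of the cell makeup of the IP in these differences was not tested.

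**Figure D4:**
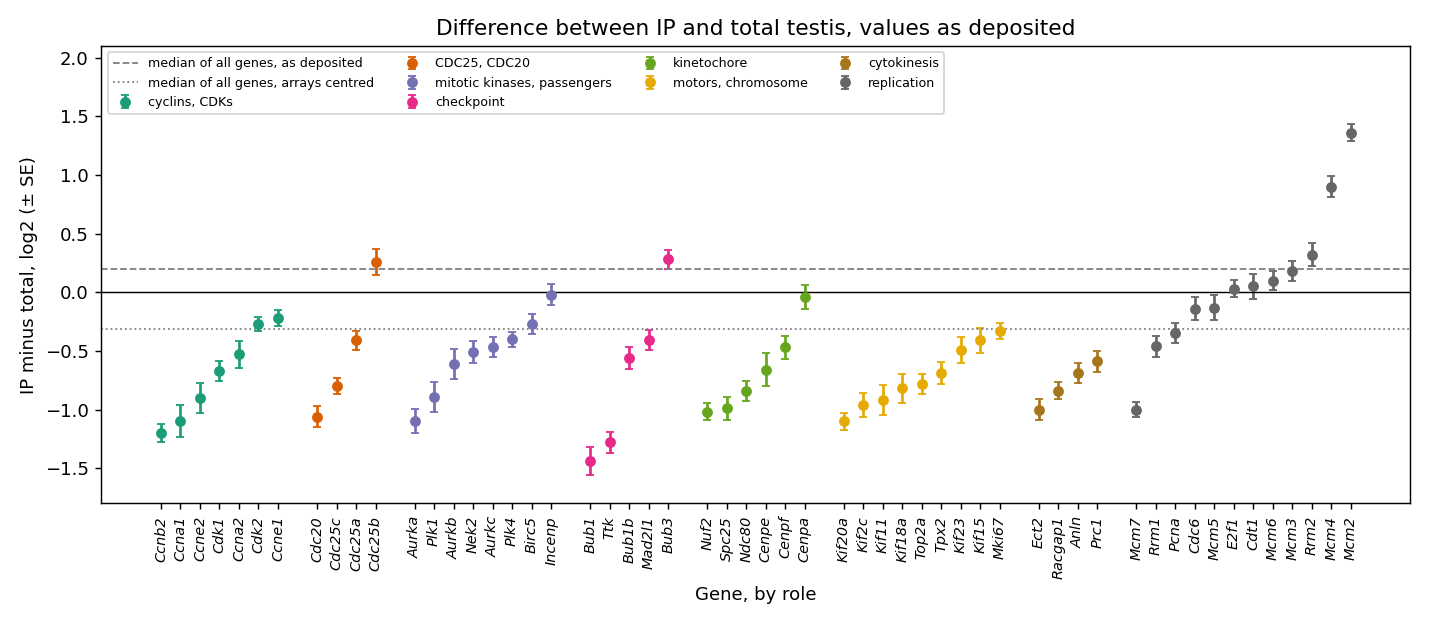
Difference between IP and total testis for 55 genes ordered by role and size (x axis), in log2 with SE (y axis; n = 10 arrays per fraction). The dashed line is the median of all genes as deposited (0.20), the dotted line that after centring each array (-0.31). The points are values as deposited and compare with the dashed line only. After centring, the median of the 55 genes was -1.05. As deposited, 42 genes are lower, and Mcm2 (1.36) and Mcm4 (0.90) stand apart at the top.

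Other genes of the cell cycle were taken as a list of 85 symbols, of which 77 were tested. In total testis 25 of them changed (18.4% of all genes), 8 with the peak in XII-II/III (3.43% of all genes), and in IP 10 did (8.87% of all genes). Lower in IP were 45 (26.6% of all genes) and higher 17 (50.1% of all genes), with a median difference of -0.31, and with the sets as a random block 26 were lower and 16 higher. Of the list's genes with the widest ranges in total testis, Ccnb3, the cyclin B3 gene of early meiosis, stood at means of 9.29, 7.13, 7.04, 8.81 and 9.31 in the windows from XII-II/III to X-XII (adjusted p = 5.64e-05). XII-II/III and X-XII were alike, and both were far above the windows from II/III to VIII. Fbxo43 (Emi2), an inhibitor of the anaphase-promoting complex, had the same high windows (12.07, 10.41, 10.71, 11.95 and 12.13; adjusted p = 7.24e-05), and so had the CDK inhibitor Cdkn2d (10.16, 9.39, 9.19, 9.99 and 10.34; adjusted p = 0.00785).

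The remaining 3 of the 6 widest peaked elsewhere. E2f5, a repressor of the E2F family, was highest in VI-VIII (9.86, 11.09, 11.24, 9.73 and 9.35 by window; adjusted p = 5.81e-07). Ccnb1ip1 (HEI10), which marks crossover sites in meiosis, was highest there as well (9.39, 10.44, 10.69, 10.05 and 9.45; adjusted p = 0.0149). Cenpk, of the inner kinetochore, peaked in II/III-VI (10.07, 10.88, 10.60, 9.83 and 9.83; adjusted p = 0.00263).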

How the data were processed

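Total testis and IP RNA (100 ng each) was amplified and hybridized to 20 GeneChip ST 1.0 arrays, per the labels' protocols. The deposited intensities are linear values summarized by RMA, per the submitters' processing notes, with the version not given in the sources used here. Arrays of 1 fraction and replicate number appear to have been normalized together and apart from the rest: 4.68% to 15.6% of values were exactly equal between 2 arrays of a set, against 6 of 3708775 value pairs across sets.

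Values were taken as log2. Tests covered the 15651 genes that were listed in every array and reached the 25th percentile of all values (8.20) in the mean of any of the 10 groups. They were run with limma 3.58.1 in R 4.3.3, with a mean per group (10 residual degrees of freedom), eBayes and Benjamini-Hochberg adjustment, threshold 0.05, two-sided. Peak means highest group mean, set against the mean of the other 4 windows, and range means highest minus lowest group mean; the adjusted p is that of the F test. Nothing says that replicates were separate animals beyond 1 testis per time point, so p-values measure the spread between these samples. The number of arrays limits the precision. On simulated data the test over total testis windows recovered 89% of changes of 1 and 7% of changes of 0.5, with 5 false calls among 15651 genes. The simulated arrays had independent noise of equal spread and no normalization sets. In the real data, arrays of a set were correlated (0.636 in the random block fit), so these rates may not hold there.

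IP and total testis of the same window and number come from 1 testis per the labels, so they were treated as paired in an alternative. Their deviations correlated at 0.158 to 0.359 in the 5 windows, against -0.226 to 0.24 between IP and total testis of different windows. These ranges overlap, so the correlations alone do not show a pairing. Numbers within a fraction (total testis -0.0616 to 0.666) mark a normalization set. Values of every total testis array are given for up to 4 genes per role that passed there, widest first. Array ranges are given for the 4 highest and 4 lowest called differences between fractions, and means for the 6 widest called of the other cell cycle genes. Any of the 55 could be named. Outside this rule, IP arrays are given for some of these genes and for Bub1, and array ranges for Mcm7 and, in total testis, Ccna1. Genes, lists and tests were chosen with earlier results of these data known. A planned comparison of protein sequences was not run. Alternatives were 2 other normalizations, 2 filters, the mean of probe sets, array weights, replicate, pair and random blocks, each fraction alone, and leaving out each array. Promoters came from RefSeq (GRCm38.p6).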

Additional observations from a re-analysis of the deposited data

How the results depend on the processing

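Of 55 genes, 20 changed over windows in total testis, with 13 to 21 when 1 array was left out, 40 with array weights, 31 with total testis arrays alone and 32 with these and the replicate block. Calls over all genes, 2885 of 15651, moved as well, to 5936 of 15651 in the first of these fits and to 4860 and 5567 of 14645 in the others. With the peak in XII-II/III there were 14 of the 55, with 5 to 15 by leaving out an array and 25 with array weights. The share of all genes with that peak is not given for these refits, so the 25 has no such share beside it. In IP 8 changed, with 7 to 11 by leaving out an array, 16 after quantile normalization, 13 after centring, 2 with array weights, 4 with IP arrays alone and 3 with these and the replicate block. Over all genes these 5 fits called 2361, 2172 and 407 of 15651 and 770 and 1172 of 15443, against 1388. The replicate block on a fraction fitted alone was chosen after seeing the data. The interaction called 0 of the 55 genes in every fit that tested it. Of all 15651 genes it called 8 as deposited, 141 after quantile normalization and 207 after centring. With the replicate block within a fraction it called 361 of them, and with the random block 557. Lower in IP were 42 (42 to 43 by leaving out an array, 27 with a random block), and higher 5 (4 to 6; 2 after quantile normalization, 2 after centring, 2 with a random block). Of all 15651 genes, 4166 were lower as deposited and 2944 with a random block. Higher were 7839 as deposited, 5547 after quantile normalization, 4379 after centring and 6302 with a random block.

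Between IP and total testis, Cdc25b turned to -0.26 after centring, Bub3 to -0.23 and, after quantile normalization, -0.00, and Rrm2 to -0.20 and -0.17. The replicate block within a fraction (27 genes in total testis, 12 in IP) ended the calls of Plk1 and Cenpe and no other call among the 20 and the 8. The pair block ended no call between fractions. The cause of these shifts was not tested.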
